A study of Mus musculus with 6 samples.

Results

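The genes described here encode the receptor chains that share, or pair with, the common gamma chain: Il2rg itself and the chains Il2rb, Il2ra, Il15ra, Il7r, Il4ra, Il21r and Il9r. They were taken by gene symbol from the table of gene counts, and all 8 were found among its 26332 genes. Thymic natural killer (NK) cells, cytotoxic lymphocytes of the innate immune system, were sorted from C57BL/6 mice, and their RNA was sequenced with 1 library a mouse. The Tcf7 knockout (KO) group held 2 libraries, KO 1 (male) and KO 2 (female), and the wild-type (WT) group held 4, WT 1 and WT 3 (male) and WT 2 and WT 4 (female). The product of Tcf7 is the DNA-binding protein TCF-1, which acts in developing T cells and innate lymphoid cells. The sources used here do not give the knockout allele, whether it acts in all cells, or the age of the mice, and they name no treatment for either group. Sorting kept cells with NK1.1 and NKp46 on their surface and removed those that stained for CD3, TCRbeta, CD8 or the CD1d tetramer.

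Cytokines of this family are recognised by a private chain that binds the ligand together with the common gamma chain, whose partner inside the cell is the kinase JAK3. The private or shared signalling chain brings JAK1, and the pair of kinases activates STAT factors, among them STAT5. Interleukin-15 acts through Il2rb and the common gamma chain and is the main survival factor of NK cells. Interleukin-7 signalling through Il7r is a known feature of NK cells that develop in the thymus.

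Total gene counts were 16418910 to 26245132 per library in KO and 16666151 to 31155303 in WT, and levels are given as CPM, counts scaled to a common library total, after TMM scaling for differences in composition. On this scale 3 counts correspond to at most 0.180 CPM, in WT 3. The targeted gene, Tcf7, had 268 CPM in KO 1 and 452 CPM in KO 2, against 811 to 947 CPM in WT libraries (log2 fold change -1.35, SE 0.17, adjusted p = 0.00294). Of 13652 genes tested, 1872 were called, meaning an adjusted p under 0.05 in edgeR's quasi-likelihood test. Of these, 1110 were higher and 762 lower in KO, whereas scaling by library size alone gave 1336 higher and 523 lower. The genes that define the sort were present in both groups: Ncr1, which encodes NKp46, had 983 CPM in KO 1 and 740 CPM in KO 2, against 820 to 1037 CPM in WT libraries. Klrb1c, the gene of NK1.1, fell to 1270 and 1084 CPM in KO 1 and KO 2, against 1555 to 1705 CPM in WT (log2 fold change -0.48, adjusted p = 0.0149). Of 8 NK markers, Klrb1c and Eomes (log2 fold change -2.11), the gene of an NK transcription factor, fell and 6 were not called, with a summed level of 7267 and 5755 CPM in KO 1 and KO 2 and 8220 to 8921 CPM in WT. Marker genes of cells that the sort should exclude were higher in KO for several lineages. Their summed CPM in KO 1, KO 2 and the range of WT was 1691, 2208 and 384 to 582 for alpha-beta T cells (6 of 11 rose), 676, 496 and 232 to 385 for gamma-delta T cells (3 of 6 rose), and 57.6, 618 and 14.2 to 134 for early thymocytes (3 of 6 rose). It was 555, 417 and 375 to 424 for B cells (6 of 7 rose), 491, 566 and 393 to 538 for myeloid cells (none of 8 called), 271, 448 and 111 to 119 for stroma (4 of 6 tested rose), 180, 235 and 116 to 133 for ILC2 and ILC3 genes (2 of 5 tested rose, with Il22 at 0 throughout) and 76.7, 147 and 67.5 to 77.1 for regulatory T cells (none of 3 tested called). The most abundant B cell marker, Ighm, was not called, and Ms4a1, the gene of CD20, had 44.2 and 9.73 CPM in KO 1 and KO 2 and at most 1.57 CPM in WT. The largest part of the myeloid sum was Itgam, with 347 and 280 CPM in KO 1 and KO 2 and 319 to 368 CPM in WT. Lyz2 (36.4 and 70.3 CPM in KO 1 and KO 2, 0.04 to 14.7 CPM in WT), Csf1r, Adgre1 and Fcgr1 were above every WT library in both KO libraries, without a call. For Itgam, Cd68, Cst3 and Mpeg1 the groups overlapped. Most of the stroma sum was Pecam1, with 245 and 402 CPM in KO 1 and KO 2 and 103 to 113 CPM in WT. Of the other stroma markers, Col1a1 and Cdh5 were not called, Col3a1 and Pdgfra were not tested, and Epcam, Krt5 and Krt8 rose. In bulk RNA, a change in the number of cells of a type and a change in RNA per cell cannot be told apart.

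The KO libraries differed from WT in part of the receptor genes. Of the 8 genes, all of which were tested, 4 rose and none fell, beside 13.7% called among all genes (8.13% higher and 5.58% lower). The 4 that rose were Il2ra, Il15ra, Il21r and Il9r, the 4 genes with the lowest level per length in WT. The 4 that were not called were Il2rb, Il2rg, Il7r and Il4ra, the 4 with the highest. The WT level is also the base of the fold change, so this order is not independent of the rises. Both KO libraries lay above every WT library for 4 of 8 genes and below every WT library for none, against 20.5% and 18.8% of all genes tested (39.3% in either direction). The median log2 fold change was 0.52 over the 8 genes and 0.02 over all genes tested. Il9r passed the filter that removes genes with few counts only with its KO libraries, where it was higher. Its place in these counts and in the median is thus not independent of its rise.

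**Figure D1:**
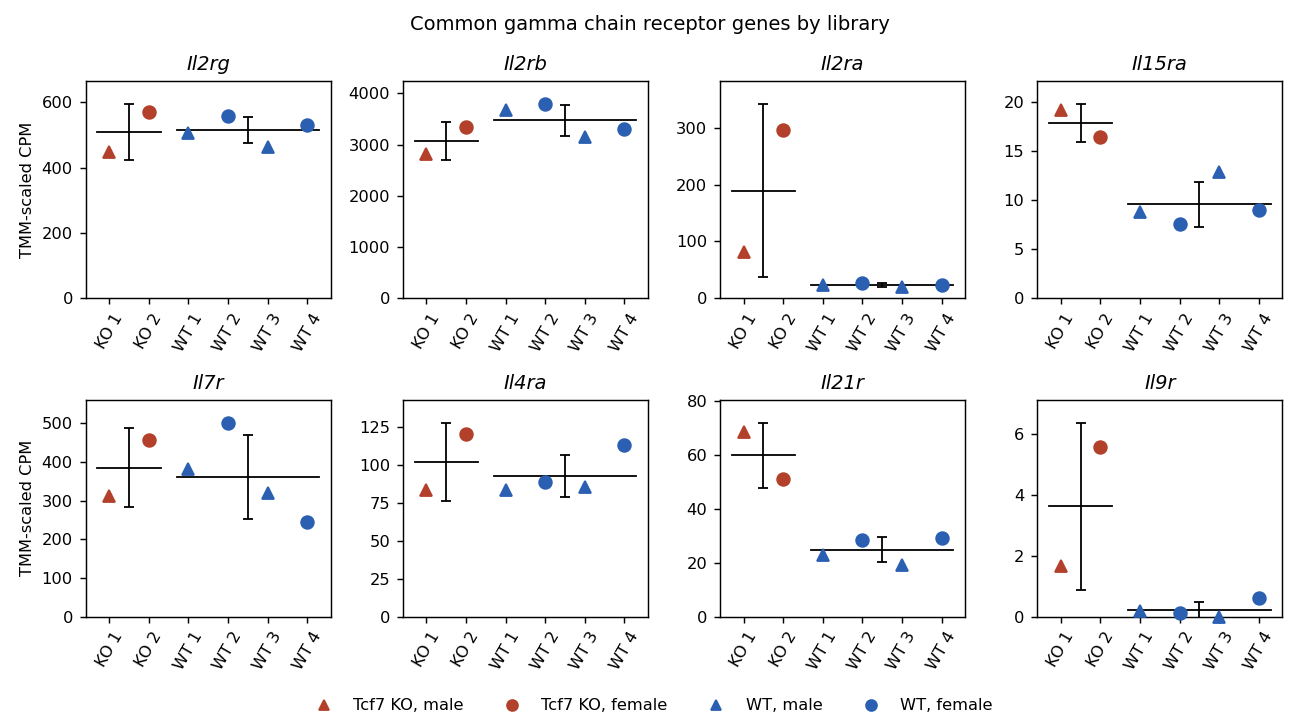
TMM-scaled CPM (linear axis from 0) of the 8 receptor chain genes in each library, with triangles for male and circles for female mice, horizontal lines for group means and bars for SD (n = 2 KO, n = 4 WT). Il2ra, Il15ra, Il21r and Il9r had both KO libraries above every WT library, whereas the groups overlapped for Il2rg, Il2rb, Il7r and Il4ra.

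The sequence before a transcript start of 3 of these genes is shown because they represent a gene that rose with a wide spread (Il2ra), a gene that rose with a narrow one (Il21r) and a gene whose groups overlapped (Il7r). Each line gives the 250 bases before the start used in RefSeq's promoter entry in GRCm38.p6, 5′ to 3′ on the gene's strand, with capitals for the match to a searched motif. For Il21r and Il7r this start lies inside the full RefSeq extent of the gene given with its values, so part of the window overlaps that extent. Bases shortly after the start were found in a GENCODE transcript of the gene for Il21r, but not for Il2ra or Il7r.
Il2ra (chr2:11642542-11642791, plus strand): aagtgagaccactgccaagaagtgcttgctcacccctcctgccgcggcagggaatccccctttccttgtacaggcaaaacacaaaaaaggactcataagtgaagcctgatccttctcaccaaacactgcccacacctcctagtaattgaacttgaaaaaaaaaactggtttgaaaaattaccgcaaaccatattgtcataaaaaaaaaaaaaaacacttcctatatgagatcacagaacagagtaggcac
Il21r (chr7:125603179-125603428, plus strand): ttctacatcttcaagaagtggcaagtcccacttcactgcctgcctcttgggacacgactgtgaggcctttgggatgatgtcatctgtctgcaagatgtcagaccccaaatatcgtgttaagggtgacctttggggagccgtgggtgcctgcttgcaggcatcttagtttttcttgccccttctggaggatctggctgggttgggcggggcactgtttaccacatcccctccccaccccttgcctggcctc
Il7r (chr15:9529877-9530126, minus strand): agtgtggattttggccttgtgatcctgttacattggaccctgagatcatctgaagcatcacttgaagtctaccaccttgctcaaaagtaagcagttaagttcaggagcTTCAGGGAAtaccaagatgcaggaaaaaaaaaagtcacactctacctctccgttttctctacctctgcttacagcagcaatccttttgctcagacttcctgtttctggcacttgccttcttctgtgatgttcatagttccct
The motifs searched on both strands were CTTTGAT and CTTTGTT, the core letters of TCF sites, and TTCNNNGAA, the core of STAT5 sites, which reads the same on both strands. RefSeq windows were found for 7 of the 8 genes, Il15ra having 2 of the 8 windows, and Il2rb was not among them. TTCNNNGAA occurred in 1 of the 8 windows, that of Il7r, as TTCAGGGAA with its first base at position -142 (the base before the start being -1). Over all 32851 windows of this length, 7.02% held TTCNNNGAA, 3.21% held CTTTGAT and 5.03% held CTTTGTT. Neither TCF motif occurred in the 8 windows. These matches describe the letters of short windows only.

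Il2rg encodes the common gamma chain that every receptor of the family needs. The gene lies on mm10 chromosome X, 101264385 to 101268255. It had 448 CPM in KO 1 and 569 CPM in KO 2, against 506, 558, 463 and 531 CPM in WT 1 to WT 4. The KO libraries lay just below and just above the WT range, so the groups overlapped. The means were 508 ± 85.3 CPM (SD, n = 2) in KO and 514 ± 40.5 CPM (SD, n = 4) in WT, and the log2 fold change was -0.02 (95% interval -0.24 to 0.19, adjusted p = 0.893). GENCODE annotates a longer gene, Gm20489, over Il2rg on the same strand, and reads of overlapping genes cannot be separated in these counts. The sign of the Il2rg fold change turned with library-size scaling (0.0598) and with the filter of at least 5 CPM in 2 libraries (0.0058).

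Il2rb encodes the signalling chain shared by the receptors for interleukin-2 and interleukin-15. The gene lies on chromosome 15, 78479256 to 78511621, and had the highest level of the family in every library. Its level was 2809 CPM in KO 1 and 3334 CPM in KO 2, against 3669, 3786, 3145 and 3299 CPM in WT 1 to WT 4. KO 1 was below every WT library and KO 2 was inside the WT range. With means of 3071 ± 371 CPM (SD, n = 2) in KO and 3475 ± 302 CPM (SD, n = 4) in WT, the log2 fold change was -0.18 (95% interval -0.41 to 0.05, adjusted p = 0.265).

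Il2ra encodes the chain that gives the interleukin-2 receptor its high affinity, known as CD25. It lies on chromosome 2, 11642792 to 11693194. Its level was 82.2 CPM in KO 1 and 297 CPM in KO 2, against 23.8, 27.7, 19.0 and 23.4 CPM in WT 1 to WT 4. Both KO libraries stood well above all 4 WT libraries, but they differed from each other by 3.61-fold, against 1.46-fold between the highest and lowest WT library. The means were 189 ± 152 CPM (SD, n = 2) in KO and 23.5 ± 3.55 CPM (SD, n = 4) in WT. The fit with sex as a term gave a rise of 7.06-fold (log2 fold change 2.82, SE 0.32, adjusted p = 0.00196). GENCODE annotates Gm37881 on the same strand within Il2ra, and its reads cannot be separated from those of Il2ra in these counts. KO 2 set much of the size of the rise: the log2 fold change was 1.93 without KO 2 (adjusted p = 0.00443) and 3.53 without KO 1 (adjusted p = 0.000515).

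Early thymocytes also carry CD25, and their markers moved with KO 2. Rag1, which encodes a recombinase subunit, had 20.2 CPM in KO 1 and 322 CPM in KO 2, against 4.25 to 62.4 CPM in WT libraries. Ptcra, the gene of the pre-T cell receptor alpha chain, had 2.38 and 33.6 CPM in KO 1 and KO 2, against 0.73 to 1.33 CPM in WT. Notch3 had 7.13 and 80.4 CPM in KO 1 and KO 2, against 1.01 to 6.94 CPM in WT. In KO 1, the summed early thymocyte level of 57.6 CPM lay inside the WT range only through WT 4, being above WT 1 to WT 3 (14.2 to 37.5 CPM). Il2ra in KO 1 was above every WT library. Of the single markers, Ptcra, Notch3 and Cd24a (16.3 CPM, against at most 15.3 CPM in WT) were above every WT library in KO 1. Rag1, Rag2 and Dntt were inside the WT range there. In WT 4, the summed level was 134 CPM, of which Rag1 held 62.4 CPM and Dntt 45.5 CPM, while Ptcra had 1.33 CPM. Il2ra stood at 23.4 CPM in WT 4, inside the range of the other WT libraries. Foxp3, the defining gene of regulatory T cells, which also carry CD25, was at 0 in KO 1, at 1.75 CPM in KO 2 and at most 0.12 CPM in WT. The part of other cells in the Il2ra levels of KO 1 and KO 2 was not tested.

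**Figure D2:**
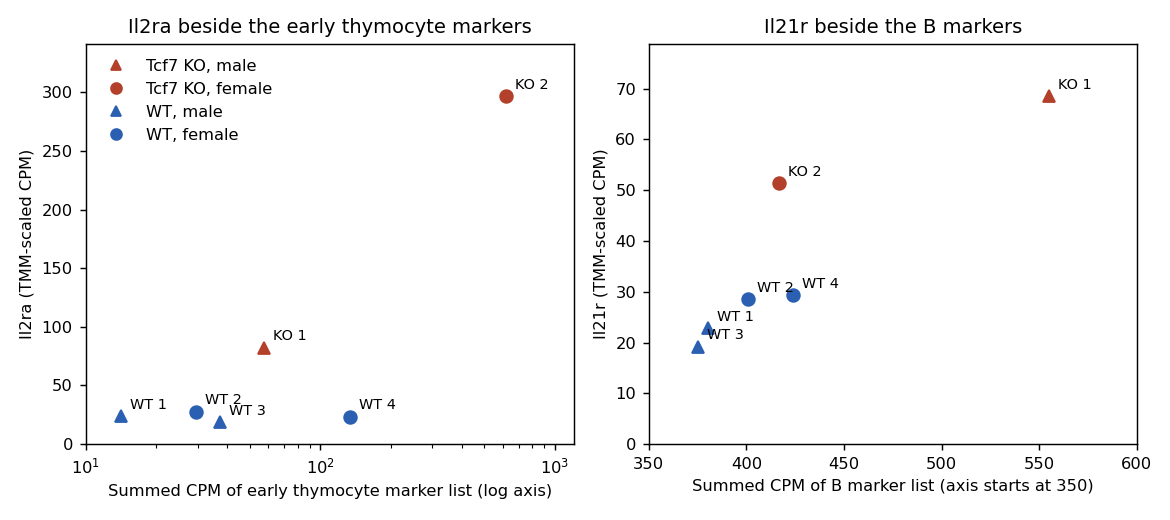
Left, Il2ra against the summed CPM of 6 early thymocyte markers (log axis) in each library. Right, Il21r against the summed CPM of 7 B cell markers (axis not starting at 0). KO 2 was highest for Il2ra and for the early thymocyte sum, and KO 1 lay inside the WT range of that sum, above every WT library but WT 4. KO 1 was highest for Il21r and for the B cell sum, where KO 2 lay inside the WT range.

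Il15ra encodes the chain that binds interleukin-15 with high affinity and presents it to neighbouring cells. It is the neighbour of Il2ra on chromosome 2 (11705172 to 11733985), 12.0 kilobases past its end, with 1 RefSeq gene, Gm39759, between them. Il15ra had 19.2 CPM in KO 1 and 16.5 CPM in KO 2, against 8.83, 7.58, 12.8 and 9.003 CPM in WT 1 to WT 4. Both KO libraries were above the highest WT library, WT 3. The means were 17.8 ± 1.93 CPM (SD, n = 2) in KO and 9.56 ± 2.27 CPM (SD, n = 4) in WT, and the fitted rise was 1.88-fold (log2 fold change 0.91, SE 0.21, adjusted p = 0.0303). Leaving out WT 1, WT 2, KO 1 or KO 2 ended the call (adjusted p 0.0784 to 0.146) at log2 fold changes of 0.82 to 0.98, as did the test against a fold of 1.5 (0.271).

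Il7r encodes the private chain of the interleukin-7 receptor, known as CD127, which also serves the receptor for TSLP. The gene lies on chromosome 15, 9506159 to 9529941. It had 313 CPM in KO 1 and 458 CPM in KO 2, against 381, 501, 320 and 244 CPM in WT 1 to WT 4. The highest and lowest WT libraries, WT 2 and WT 4, differed by 2.06-fold, and both KO libraries lay between them. The means were 385 ± 103 CPM (SD, n = 2) in KO and 362 ± 109 CPM (SD, n = 4) in WT. The log2 fold change was 0.07 (adjusted p = 0.885), and its 95% interval of -0.54 to 0.69 was the widest among the 4 genes that were not called.

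Il4ra encodes the chain that binds interleukin-4 and, with a partner outside this family, interleukin-13. The gene lies on chromosome 7, 125552271 to 125579474. Il4ra had 83.6 CPM in KO 1 and 120 CPM in KO 2, against 83.3, 88.8, 85.6 and 113 CPM in WT 1 to WT 4. KO 1 was inside the WT range and KO 2 above it. The means were 102 ± 25.8 CPM (SD, n = 2) in KO and 92.7 ± 13.8 CPM (SD, n = 4) in WT, with a log2 fold change of 0.12 (95% interval -0.19 to 0.43, adjusted p = 0.592). GENCODE places an antisense gene, Gm44876, inside Il4ra, and the library kit does not mark strand.

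Il21r encodes the private chain of the receptor for interleukin-21. It follows Il4ra on chromosome 7 (125603252 to 125634397), 23.8 kilobases past its end, with no RefSeq gene between them. Il21r had 68.5 CPM in KO 1 and 51.4 CPM in KO 2, against 22.9, 28.5, 19.2 and 29.3 CPM in WT 1 to WT 4. The lower KO library was above the highest WT library, WT 4. Means of 59.9 ± 12.1 CPM (SD, n = 2) in KO and 25.0 ± 4.79 CPM (SD, n = 4) in WT stood beside a fitted rise of 2.43-fold (log2 fold change 1.28, SE 0.20, adjusted p = 0.00661). The log2 fold change was 0.82 without KO 1 (adjusted p = 0.0403) and 1.70 without KO 2 (adjusted p = 0.00403). B cells also express this receptor, and KO 1 was likewise the higher KO library in the summed B cell markers (555 and 417 CPM in KO 1 and KO 2), although not for Ighm (357 and 364.5 CPM). In KO 2, the B cell sum lay inside the WT range of 375 to 424 CPM, while Il21r was above every WT library. KO 1 was also the higher KO library in the gamma-delta T cell sum (676 and 496 CPM), and KO 2 in the sums of the other excluded cells. Cd79a had 40.6 and 8.36 CPM in KO 1 and KO 2 and at most 2.34 CPM in WT. The share of other cells in the Il21r level was not tested. The 2 pairs of neighbouring genes thus differed in their calls, with Il2ra and Il15ra both called and Il21r but not Il4ra called.

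Il9r encodes the private chain of the interleukin-9 receptor. The gene lies on chromosome 11, 32187544 to 32205283, and was the least abundant of the family in every library. It had 29 counts in KO 1 and 150 counts in KO 2, against 5, 4, 0 and 15 counts in WT 1 to WT 4. In CPM these were 1.68 (exact 95% binomial interval 1.13 to 2.41) and 5.57 (4.71 to 6.53) in KO, against at most 0.61 (0.34 to 0.998, WT 4) in WT, and the 0 counts of WT 3 allow up to 0.221 CPM by the exact interval, or 0.180 CPM by the limit of 3 counts. The intervals and this limit cover counting error only. Both KO libraries were above every WT library, and the lower bound of KO 1 was above the upper bound of WT 4. The fitted log2 fold change of 3.89 (SE 0.90, adjusted p = 0.0300) rests on few WT counts. The call ended when WT 1, WT 2, WT 3, KO 1 or KO 2 was left out (adjusted p 0.0522 to 0.216), in the test against a fold of 1.5 (0.0647) and with the replicate number as a block (0.0635). Il9r did not pass the stricter filter of 5 CPM in 2 libraries. KO 2, the higher KO library for Il9r, was also the higher one in the summed markers of alpha-beta T cells (1691 and 2208 CPM in KO 1 and KO 2) and early thymocytes (57.6 and 618 CPM). The same held for the myeloid, stroma, ILC2 and ILC3 and regulatory T cell sums, but not for those of gamma-delta T cells and B cells. The part of other cells in the Il9r level, as in that of Il15ra, was not tested.

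**Figure D3:**
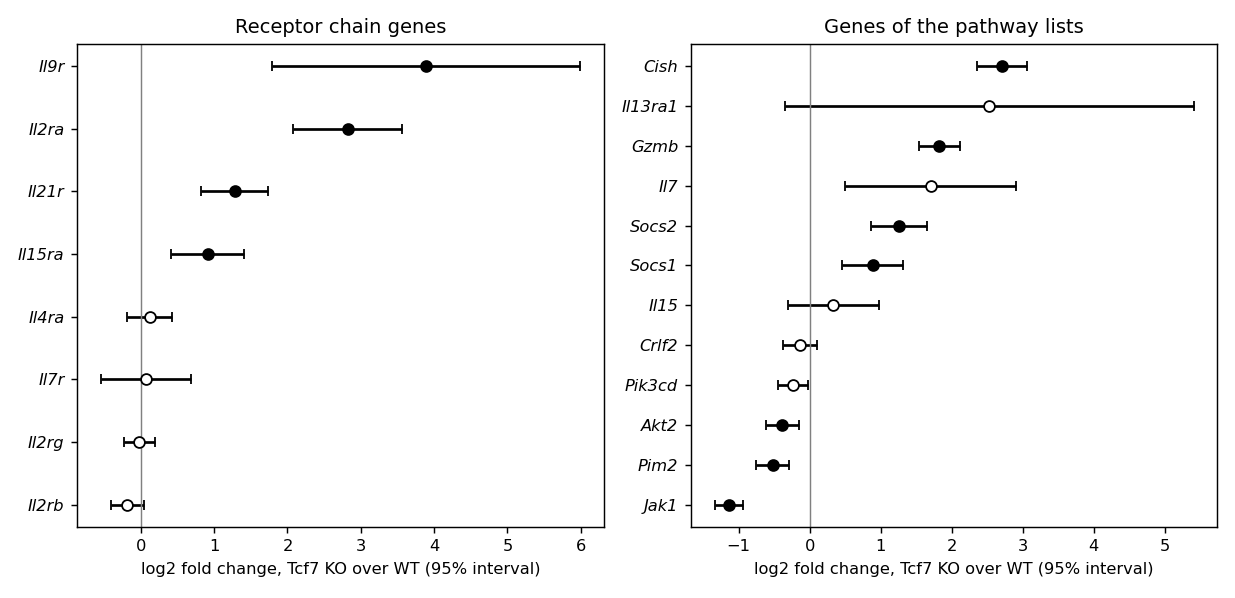
log2 fold changes of Tcf7 KO over WT with 95% intervals for the 8 receptor chain genes (left) and for genes named from the pathway lists (right), from the fit over all genes. Filled circles are genes called at an adjusted p under 0.05. The receptor genes fall into 4 with intervals above 0 and 4 with intervals that include 0.

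Levels were compared between genes per kilobase of the gene length given in the deposited table. In WT the order was Il2rb (1288 ± 112 CPM per kilobase, SD, n = 4), Il2rg (319 ± 25.1), Il7r (113 ± 33.9), Il4ra (18.2 ± 2.71), Il21r (9.57 ± 1.84), Il15ra (6.18 ± 1.47), Il2ra (5.30 ± 0.80) and Il9r (0.0761 ± 0.0846). The WT ranges of neighbours in this order did not overlap, except between Il21r and Il15ra and between Il15ra and Il2ra. In KO, the CPM per kilobase was 1139 ± 137 for Il2rb, 315 ± 52.9 for Il2rg, 120 ± 32.0 for Il7r, 42.8 ± 34.2 for Il2ra, 23.0 ± 4.65 for Il21r, 11.5 ± 1.25 for Il15ra and 1.17 ± 0.89 for Il9r (SD, n = 2). Il4ra stood at 16.4 and 23.6 CPM per kilobase in KO 1 and KO 2. The KO values of Il2ra, Il21r and Il4ra overlapped, and those of other neighbours in the KO order did not. Il2ra held place 4 by KO mean and place 7 by WT mean. In KO 1 alone Il2ra (18.6) stood below Il21r (26.3) and above Il4ra (16.4), and in KO 2 it stood at 67.0 CPM per kilobase, above both.

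Il2rb made up 69.9% and 66.7% of the summed CPM per kilobase of the 8 genes in KO 1 and KO 2, against 72.2% to 74.4% in WT. The share of Il2rg was 18.6% and 19.0% in KO and 17.1% to 19.7% in WT, so those values overlapped. Il2ra supplied 1.25% and 3.61% of the sum in KO 1 and KO 2, against 0.270% to 0.321% in WT. Per length, Il2ra transcript stood at 1.78% and 5.42% of Il2rb in KO 1 and KO 2, against 0.368% to 0.445% in WT. Il2rb exceeded Il2rg 3.75-fold and 3.50-fold in KO 1 and KO 2, and 3.72-fold to 4.34-fold in WT. Il2rb and Il2rg had the largest shares in every library of both groups.

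**Figure D4:**
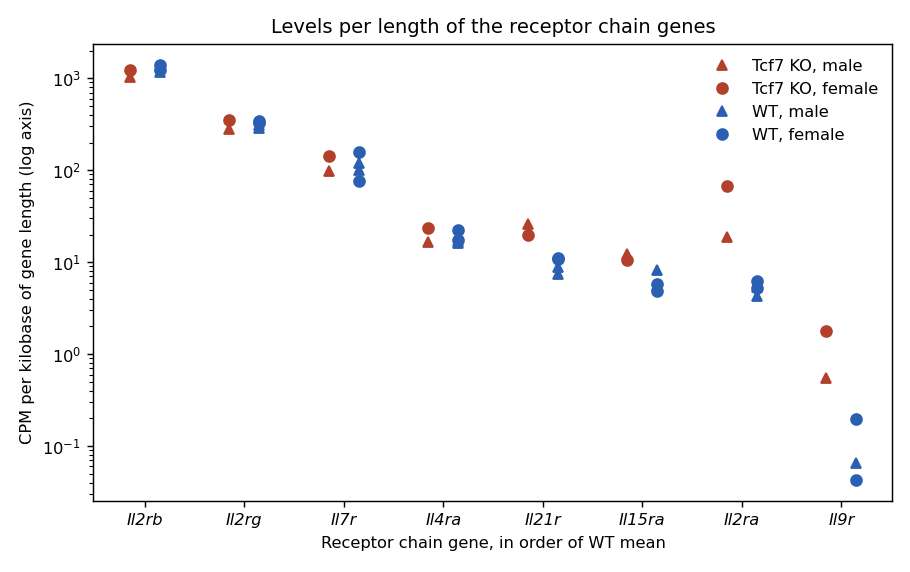
CPM per kilobase of gene length (log axis) of the 8 genes in each library, KO left and WT right of each position, in the order of the WT mean. The 0 of Il9r in WT 3 cannot be drawn on a log axis. The 3 most abundant genes had overlapping KO and WT values, and Il2ra in KO 2 (67.0) lay closer to Il7r than to the WT values of Il2ra.

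Each genotype held both sexes, so the KO to WT ratio was also read within each sex, with 1 KO and 2 WT libraries a sex. Il2ra was 3.84-fold higher in KO among male and 11.6-fold higher among female mice. Il21r was 3.26-fold higher in KO among male and 1.78-fold higher among female mice, the opposite order. Il15ra was 1.77-fold and 1.98-fold higher in male and female KO, and Il9r 16.6-fold and 15.1-fold. The interaction of genotype and sex called none of the 8 genes in edgeR (0% of all genes), with 2 of the 8 and 1368 of all genes at an unadjusted p under 0.05. These 2 were Il2ra (adjusted p = 0.344) and Il21r (adjusted p = 0.388). DESeq2 called 128 of 12064 genes for the interaction, and Il2ra was among them (adjusted p = 0.000324). In edgeR without the low-count filter, 91 of 17764 genes were called, Il2ra again among them (0.0123), whereas limma voom called no gene and gave 0.398 for Il2ra. With a single KO library a sex, a difference between sexes and a difference between 2 mice cannot be told apart. For the sex term itself, none of the 8 genes was called in edgeR (0% of all genes), limma voom or DESeq2, and 3 of the 8 and 866 of all genes had an unadjusted p under 0.05. DESeq2 called 28 genes for sex, and limma voom called 0 of 13652. The X-linked Il2rg was one of the 3, with a log2 difference of 0.23 (SE 0.09) for female over male (adjusted p = 0.759), and the others were Il2ra and Il4ra. The sexes are those of the labels, and no check of them on sex-linked genes is given here.

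The genes whose pattern over the 6 libraries was closest to that of each receptor gene were found by the root mean square difference of centred log2 CPM, among 10106 other genes. For Il2ra these were Pdzk1 (0.21) and Abhd15 (0.22). Pdzk1 had 55.3 and 147 CPM in KO 1 and KO 2, against 10.02 to 14.4 CPM in WT. For Il21r they were Lpcat1 (0.10) and Tnfrsf9 (0.13), the gene of the costimulatory receptor 4-1BB, which had 276 and 233 CPM in KO 1 and KO 2, against 81.8 to 106 CPM in WT. For Il15ra they were Cntln (0.11) and Cdk2 (0.13), the gene of a cell cycle kinase. For Il9r they were Ly6a (0.59), the gene of Sca-1, and Ifitm1 (0.62), both much farther from it than the neighbours of the other genes. For the genes that were not called, the closest included Saraf (0.02) for Il2rg, Rfx3 and Mob1a (both 0.03) for Il2rb, Star (0.06) for Il4ra and Exoc8 and Crebrf (0.13 and 0.14) for Il7r. These likenesses describe the same 6 libraries that gave the fold changes.

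Beyond the receptors, 53 genes of the pathway were read from the same fit, of which 47 were tested. Of these, 5 rose and 3 fell, 17.0% of those tested beside 13.7% of all genes, with a median log2 fold change of -0.01. As a whole, the pathway genes were thus called at a rate near that of all genes.

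Among the 6 ligands, 3 were tested and none was called by edgeR, with 0 counts of Il9 in any library. Il15, the ligand of the shared receptor, had 6.72 and 8.91 CPM in KO 1 and KO 2, against 5.37 to 7.45 CPM in WT (log2 fold change 0.33, adjusted p = 0.470). Il7 had 3.25 and 4.01 CPM in KO 1 and KO 2, against 0.77 to 1.74 CPM in WT, with a log2 fold change of 1.71 (adjusted p = 0.0688, 0.0183 by DESeq2 and 0.0299 by limma voom). Neither tested gene of the list of partner chains was called: Crlf2, which pairs with Il7r in the TSLP receptor, had 81.6 and 89.1 CPM in KO and 90.0 to 102.5 CPM in WT (log2 fold change -0.14, adjusted p = 0.412). Il13ra1, which pairs with Il4ra, had 0.70 and 2.34 CPM in KO and at most 0.65 CPM in WT (log2 fold change 2.53, adjusted p = 0.221).

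Of 8 genes of JAK kinases and STAT factors, 1 fell, 1 rose and 6 were not called. Jak1, the kinase bound by the private and shared signalling chains, fell to 1298 and 1129 CPM in KO 1 and KO 2, against 2477 to 2812 CPM in WT (log2 fold change -1.14, SE 0.08, adjusted p = 0.000435). Both KO libraries lay far below every WT library, and Jak1 was called under each of the 18 alternatives. Jak3, the kinase of the common gamma chain, was not called and had 236 and 215 CPM in KO and 196 to 226 CPM in WT (log2 fold change 0.09, adjusted p = 0.633). Stat5a and Stat5b, the genes of STAT5, had log2 fold changes of 0.08 and -0.17 (adjusted p = 0.780 and 0.531). Jak3, Stat5a and Stat5b were added to the named genes after their values were seen.

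Of 9 inhibitors of receptor signalling, 3 rose and 6 were not called. Cish, a feedback inhibitor induced through STAT5, had 144 and 226 CPM in KO 1 and KO 2, against 24.8, 28.3, 29.7 and 28.6 CPM in WT 1 to WT 4. The WT libraries were close together and both KO libraries far above them, with a fitted rise of 6.54-fold (log2 fold change 2.71, SE 0.15, adjusted p = 0.000159). Socs2, also a feedback inhibitor downstream of STAT5, had 38.8 and 27.0 CPM in KO 1 and KO 2, against 12.4 to 15.5 CPM in WT (log2 fold change 1.26, SE 0.17, adjusted p = 0.00428). Socs1, which blocks JAK kinases, had 121 and 160 CPM in KO 1 and KO 2, against 58.9 to 88.0 CPM in WT (log2 fold change 0.89, adjusted p = 0.0200), and was no longer called when WT 1 or KO 2 was left out (0.0621 and 0.171) or in the test against a fold of 1.5 (0.232). The marker lists of other lineages given above were higher in the same KO libraries, and their part in these levels was not tested.

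Of 12 adaptors and kinases of the MAP kinase and PI3 kinase branches, 1 fell and 11 were not called. The one called was Akt2, with 94.8 and 108 CPM in KO 1 and KO 2, against 122 to 143 CPM in WT (log2 fold change -0.38, adjusted p = 0.0445), and it was lost under 12 of the 18 alternatives. Pik3cd, a PI3 kinase subunit gene of lymphocytes, had 785 and 737 CPM in KO and 799 to 957 CPM in WT (log2 fold change -0.24, adjusted p = 0.128). Of 13 genes known to respond to STAT5 or to these interleukins, 1 rose, 1 fell and 11 were not called. Gzmb, the granzyme B gene, had 2022 and 1543 CPM in KO 1 and KO 2, against 462 to 559 CPM in WT (log2 fold change 1.83, SE 0.12, adjusted p = 0.000340). Pim2, a survival kinase gene, had 130 and 135 CPM in KO 1 and KO 2, against 178 to 203 CPM in WT (log2 fold change -0.52, adjusted p = 0.0164), and was no longer called when WT 1, WT 3, KO 1 or KO 2 was left out (0.0532 to 0.118) or in the test against a fold of 1.5.

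**Figure D5:**
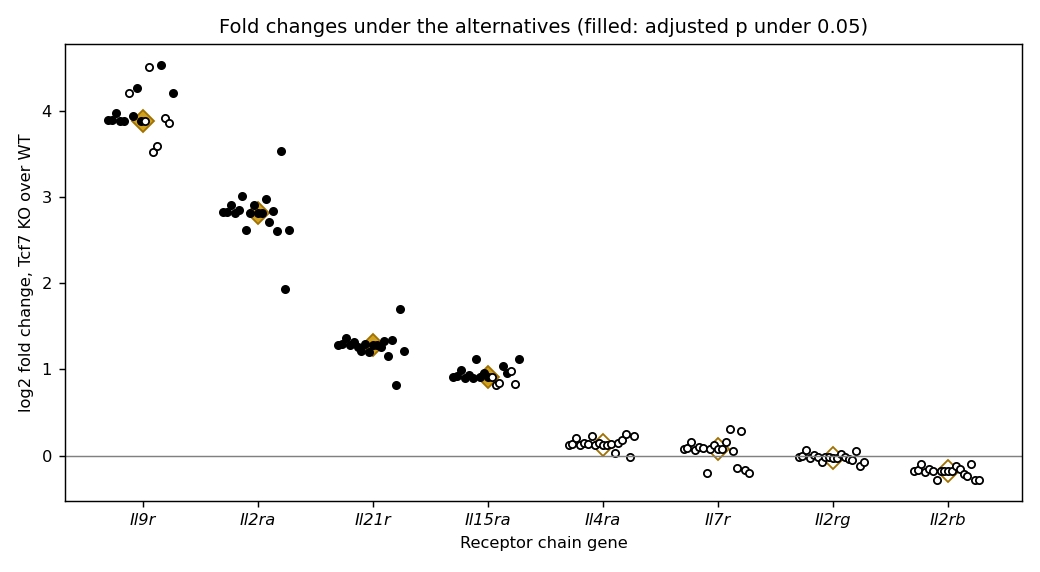
log2 fold change of Tcf7 KO over WT for each receptor gene, with a diamond for the reported fit and circles for its alternatives in scaling, filter, model, test and libraries left out. Filled symbols have an adjusted p under 0.05. Il2ra and Il21r are filled throughout, Il9r and Il15ra lose the call in 7 and 5 alternatives, and the symbols of the other 4 genes are hollow, those of Il2rb all below 0 and those of Il2rg, Il7r and Il4ra on both sides of it.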

How the data were processed

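Gene expression was measured in 6 RNA-seq libraries, 2 Tcf7 KO and 4 WT, each from an individual mouse. Per the labels' protocols, sorted thymic NK cells were lysed, and SMART-Seq v4 libraries were prepared and sequenced in paired-end mode. The authors deposited raw counts per Entrez gene without normalization. Per the submitters' processing notes these came from featureCounts on mm10, and the sources used here name no aligner and no version. Full-length cDNA was amplified without molecular identifiers or strand marks, so counts are not independent molecules.

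Symbols came from RefSeq GRCm38.p6, the same assembly as mm10 (25275 of 26332 IDs matched; the other 1057 held 0.623% of counts and stayed in the tests). The 6 single-sample files held the same counts, and 0 columns of other samples were present. Chi-square tests of replicate counts gave 53.7 per degree of freedom in KO and 8.86 to 62.2 in WT, more than sampling noise in every pair. KO and WT were compared with edgeR 4.0.16 in R 4.3.3 (TMM, filterByExpr, quasi-likelihood, sex as an additive term), with Benjamini-Hochberg adjustment over 13652 genes. Adjusted p without a tool name are from this test, and fold changes are KO over WT. Standard errors were derived from the F statistic, and 95% intervals used the residual (3) and prior (4.50) degrees of freedom. Alternatives tried were scaling by RLE, by upper quartile or by library size, other filters, no sex term, a replicate block, DESeq2 1.42.0, limma 3.58.1 voom, the robust option, a test against a fold of 1.5, each library left out, and WT 3 and WT 4 left out together. Scripts were tested on simulated counts.

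The receptor genes, the lists and the alternatives were chosen with earlier results of these data known. The text names all 8 receptor genes and, per pathway list, at most 3 called genes, by size of change, filled up to 2 with the most abundant genes where fewer were called; Jak3, Stat5a and Stat5b were added with their values in view. A few genes that these rules select are not reported here. The 2 most alike genes were sought at a mean of at least 2 log2 CPM (prior count of 2).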

Additional observations from a re-analysis of the deposited data

Results flagged for a closer look

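Crlf2, the TSLP receptor chain that pairs with Il7r, had 102.5 CPM in WT 4, apart from 90.0 to 92.1 CPM in the other 3 WT libraries. The gap between WT 4 and its nearest neighbour took 0.832 of the WT range, just past the critical value for 4 samples. It was the one gene so marked among the 22 examined in the WT group, and chance marks about 1 in 20 groups.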

How the results depend on the processing

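Il2ra and Il21r were called under each of the 18 alternatives, with log2 fold changes of 1.93 to 3.53 and 0.82 to 1.70. The count of receptor genes called was 4 in the reported fit, 2 in the test against a fold of 1.5 and 2 to 4 with 1 library left out. Over all genes it was 2955 by DESeq2, 627 against a fold of 1.5 and 934 to 1908 with 1 library left out (without KO 2 and without WT 4), the other low counts being 1002 without WT 1, 1015 without KO 1 and 1022 without WT 3. Of the pathway genes 4 were called against a fold of 1.5 and 5 to 8 with 1 library left out. For the interaction with sex, 1 receptor gene was called by DESeq2 (beside 128 of 12064 genes) and 1 without the low-count filter (beside 91 of 17764), in both Il2ra. The cause of these differences was not tested, other than that the test against a fold of 1.5 asks for more than a difference from 0.

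Signs turned only among genes that were not called. Il2rg was at 0.0598 with library-size scaling, 0.0058 with at least 5 CPM in 2 libraries and -0.12 to 0.0559 with 1 library left out. Il7r was at -0.21 with the replicate block, -0.21 without WT 3 and WT 4 together and -0.17 to 0.31 with 1 library left out. Il4ra ranged from -0.0199 to 0.24 and Il15 from -0.11 to 0.71 with 1 library left out.

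The replicate numbers are shared only by 2 libraries a group and name separate mice. Deviations from the group mean correlated at 0.163 between KO 1 and WT 1 and 0.0477 between KO 2 and WT 2, across genes. Pairs with different numbers reached 0.196 (KO 1 and WT 3) and 0.213 (KO 2 and WT 4). With 2 KO libraries the KO deviations mirror each other, so each value also occurs with the opposite sign for the other KO library. With the replicate number as a block 1341 genes and 3 receptor genes were called, Il9r being lost. With 2 KO mice the spread in KO rests on a single difference, and 0 counts in a library leave a level of up to 3 counts possible.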
